A study of Mus musculus with 6 samples.

Results

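Described here are 38 genes of glycolysis and of the response to low oxygen, chosen by name with earlier results of these data known. Each was read by its gene symbol in the platform annotation, on probe sets that carry 1 symbol, and the brightest probe set stood for a gene with several. By this rule 35 of the 38 were measured, out of 19938 genes in all. Gapdh had 25 probe sets that each carry several symbols, so the rule gave no value for it, and Gpi1 and Eno1 were not analysed here. Ero1l is listed as Ero1a in the annotation.

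The samples were keratinocytes, the epithelial cells of the epidermis, from skin of C57BL/6 mice at E18.5 (embryonic days), with RNA of 2 mice pooled on each of 6 whole-transcript microarrays. Control arrays came from Ovol2flox/+;Ovol1+/- or Ovol2flox/+;K14-Cre animals, Ovol1 KO arrays from Ovol1-/- animals, and Ovol1/2 double knockout (DKO) arrays from Ovol2flox/-;K14-Cre;Ovol1-/- animals, with 2 arrays in each group. K14-Cre is a transgene active in basal keratinocytes, where it is meant to delete the conditional allele, and every control animal also carried 1 conditional Ovol2 allele. Which of the 2 control genotypes went on which array is not stated in the labels used here. All cells were treated alike: growth for 2 to 5 days, then calcium, a signal to differentiate, for 3 to 5 further days. The labels call the arrays of a group biological replicates and give all of them as female.

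Glycolysis turns glucose into pyruvate, and lactate dehydrogenase turns pyruvate into lactate, which leaves the cell through monocarboxylate transporters. When oxygen is plentiful, prolyl hydroxylases of the Egln family mark the HIF-alpha proteins, encoded by Hif1a and Epas1, for destruction. When oxygen is scarce these proteins accumulate, pair with Arnt and bind the letters ACGTG or GCGTG near their target genes, which include much of glycolysis. In the epidermis, which has no blood vessels of its own, the HIF pathway is known to be active in normal skin. HIF-alpha is controlled largely at the level of the protein, which an RNA array does not measure.

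Upstream windows of 5 transcript starts are shown for the places where these motifs lie. The windows are the 250 bases before the start in RefSeq's GRCm38.p6 annotation, written 5′ to 3′ on the gene's strand. Capitals mark every ACGTG or GCGTG on that strand and their reverse complements, CACGT and CACGC, and a palindromic CACGTG counts on both strands. Pfkfb3 is shown at both of its listed starts because it fell in the DKO arrays, at chr2:11553930-11554179 and chr2:11502091-11502340, both on the minus strand. Egln3 (chr12:54203875-54204124, minus strand) and Bnip3 (chr7:138909507-138909756, minus strand) are shown because the 2 DKO arrays lay far apart in both. Ldha (chr7:46845554-46845803, plus strand) is shown because this window, the first of 2 listed for the gene, holds 5 matches while the groups lay close together. The other Ldha window holds 1.
Pfkfb3, first start: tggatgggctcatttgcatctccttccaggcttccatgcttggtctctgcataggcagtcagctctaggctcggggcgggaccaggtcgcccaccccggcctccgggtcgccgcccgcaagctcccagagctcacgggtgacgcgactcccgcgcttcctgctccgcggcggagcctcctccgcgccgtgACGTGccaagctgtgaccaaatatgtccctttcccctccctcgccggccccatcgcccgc
Pfkfb3, other start: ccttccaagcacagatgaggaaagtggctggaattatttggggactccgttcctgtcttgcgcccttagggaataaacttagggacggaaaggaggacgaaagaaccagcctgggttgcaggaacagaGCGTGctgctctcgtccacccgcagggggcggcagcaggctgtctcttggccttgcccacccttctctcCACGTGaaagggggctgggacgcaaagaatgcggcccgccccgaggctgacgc
Egln3: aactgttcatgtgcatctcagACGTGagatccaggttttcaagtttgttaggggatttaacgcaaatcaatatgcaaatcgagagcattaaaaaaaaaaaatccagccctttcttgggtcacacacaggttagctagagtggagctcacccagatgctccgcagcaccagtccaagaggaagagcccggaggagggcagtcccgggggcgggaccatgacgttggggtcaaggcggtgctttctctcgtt
Bnip3: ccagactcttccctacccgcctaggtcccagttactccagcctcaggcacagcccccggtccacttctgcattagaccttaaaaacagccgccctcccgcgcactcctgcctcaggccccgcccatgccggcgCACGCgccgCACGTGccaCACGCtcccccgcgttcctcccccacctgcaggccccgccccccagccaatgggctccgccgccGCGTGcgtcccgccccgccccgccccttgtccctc
Ldha: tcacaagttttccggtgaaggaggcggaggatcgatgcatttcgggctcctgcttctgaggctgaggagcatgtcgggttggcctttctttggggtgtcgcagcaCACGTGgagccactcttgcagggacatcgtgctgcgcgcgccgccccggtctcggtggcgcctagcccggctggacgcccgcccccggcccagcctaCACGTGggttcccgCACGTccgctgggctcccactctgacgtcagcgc

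The RefSeq table held such windows for 35 of the 38 listed genes, with Slc2a3, Epas1 and Ndrg1 not among them. Of the 49 windows of these genes, 39 (79.6%) held at least 1 match to ACGTG or GCGTG, against 38.6% of the 32851 windows of all genes. ACGTG was in 49.0% of the genes' windows and 16.6% of all windows, and GCGTG in 55.1% and 28.2%. Some windows of the same gene overlap, as for Aldoa and Eno1, so the same match can count in more than 1 window. By gene, 31 of the 35 (88.6%) held a match in at least 1 window, against 41.5% of 27025 genes. Both motifs contain CG, and the genes' windows were also richer in these letters, with a median of 14 CG pairs against 6 and a median G and C content of 60.4% against 52.4%. The part of this base composition in the motif counts was not tested. A match is a run of letters, not evidence of binding.

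All values below are log2(intensity + 16), on which a difference of 1 is a 2-fold change and dim genes are understated, after quantile normalization of the 6 arrays. They run from 4 to 14.70, with a median over genes of 8.22. A gene was called when its limma p-value was below 0.05 after Benjamini-Hochberg adjustment over the 19938 genes. Arrays carry no detection call, and their number, 2 per group, limits the precision. Bulk RNA cannot tell fewer cells of a kind from less RNA in each. The labelled cell type fitted its markers, since the basal keratin genes Krt5 and Krt14 measured 13.61 or more on every array. Ovol1 itself measured 10.27 and 9.85 in control, 10.53 and 10.22 in Ovol1 KO, and 10.58 and 10.59 in DKO. Both DKO values were thus above the other 4. Its log2 fold change in DKO against control was 0.53 (limma adjusted p = 0.30), and that of Ovol2 was 0.04 (adjusted p = 0.98). Neither gene had a lower mean in DKO than in control on these probe sets, so they check no label.

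Xist, made from the inactive X chromosome of female cells, lay between 4.59 and 4.71 on control 1, control 2 and Ovol1 KO 1. On Ovol1 KO 2, DKO 1 and DKO 2 it lay between 11.97 and 12.26. Kdm5d, on the Y chromosome, was high (14.70) on the former 3 arrays and lay between 7.50 and 7.64 on the latter 3. The female label thus goes against 3 arrays, and every DKO against control difference also separates arrays of low and high Xist. Ovol1 KO 2 is the only array outside the DKO group with high Xist, and its values are given beside the main results.

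Between DKO and control, 3 of the 35 genes were called. Epas1, which encodes HIF-2-alpha, rose 3.60-fold, and 2 genes fell: Pfkfb3, whose enzyme makes the main activator of phosphofructokinase, 2.65-fold, and Ndrg1, a hypoxia-induced gene of epithelial differentiation, 2.29-fold. The glycolytic enzymes themselves had no called member, and 10 of the 14 measured differed by less than 0.3 log2 units. The call of 1 higher and 2 lower among 35 stands against 0.943% higher and 2.26% lower among all genes tested. At an unadjusted p below 0.05 there were 15 of the 35 (10 higher, 5 lower), against 14.5% of all genes. The difference was positive for 25 genes and negative for 10, against 10818 positive and 9120 negative among all genes. Its median was 0.19, against 0.02 over all genes. Both DKO arrays lay above both control arrays for 12 of the 35 and below both for 5. Among all genes 23.1% lay above and 21.5% below. The 35 were listed with earlier results of these data known, so these shares describe them and test nothing.

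**Figure D1:**
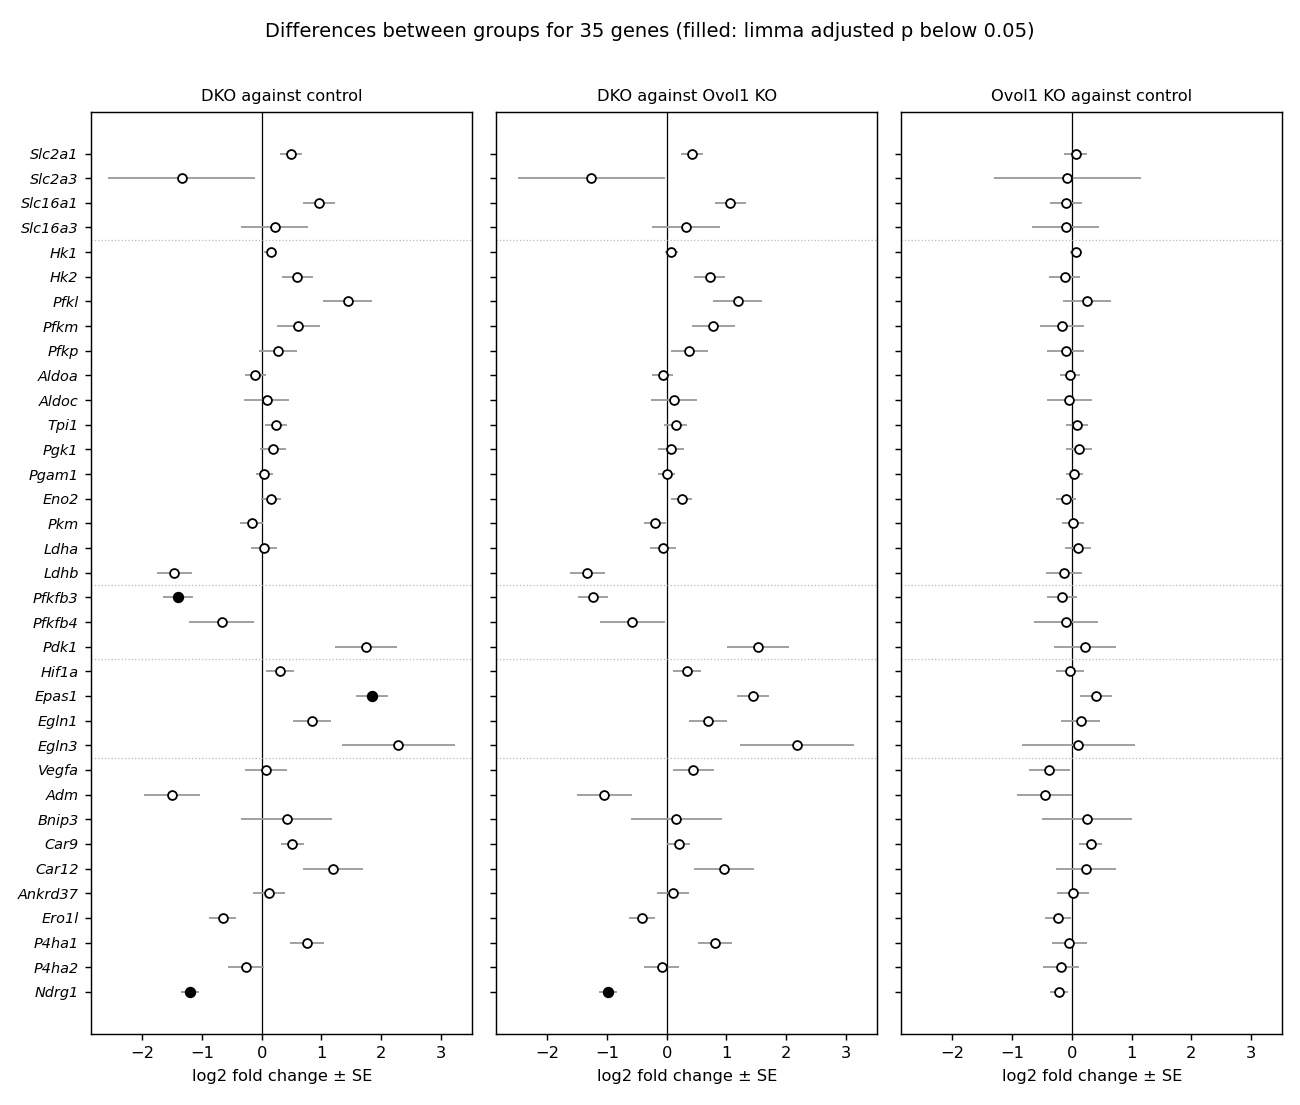
Log2 fold change (x axis, bars are ± SE from the limma fit, 2 arrays per group) of the 35 measured genes (y axis, by role, dotted lines between roles) in the 3 comparisons. Filled points have an adjusted p below 0.05: Epas1, Pfkfb3 and Ndrg1 in DKO against control and Ndrg1 in DKO against Ovol1 KO. The Ovol1 KO against control points all lie between -0.46 and 0.40.

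Among the oxygen sensing genes, Epas1 measured 9.71 and 10.32 in the control arrays, 10.15 and 10.68 in the Ovol1 KO arrays, and 12.01 and 11.72 in the DKO arrays. Both of its DKO values were above the other 4. The log2 fold change in DKO against control was 1.85 (SE 0.27, limma adjusted p = 0.018, 95% interval 1.21 to 2.49). The call was lost without DKO 1 (1.71, adjusted p = 0.12), without DKO 2 (1.99, adjusted p = 0.074) and with Xist as a covariate (1.32, adjusted p = 0.69). With that covariate 0.0401% of all genes were called, against 3.2% without it. Against Ovol1 KO the Epas1 difference was 1.44 (SE 0.27, adjusted p = 0.050), which just missed the threshold. Set against Ovol1 KO 2 alone, the array that shares high Xist, the DKO arrays were 1.18 higher (SE 0.30, adjusted p = 0.33).

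Endothelial cells express Epas1 strongly, so their markers are given beside it. Of 7 endothelial markers measured, 0 were called, and their summed intensity was 2031 and 889 in the control arrays, 1523 and 902 in the Ovol1 KO arrays, and 590.4 and 602 in the DKO arrays. Most of the fall in this sum came from Kdr, at 10.49 and 8.51 in control and 6.79 and 6.65 in DKO, while Pecam1 differed by -1.12 (adjusted p = 0.21). Cdh5, another defining endothelial gene, lay between 6.77 and 7.06 on all 6 arrays. The part of endothelial cells in the Epas1 values was not tested.

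Hif1a, which encodes HIF-1-alpha, measured 12.06 and 12.64 in control, 12.04 and 12.60 in Ovol1 KO, and 12.54 and 12.78 in DKO. The groups overlapped, and its log2 fold change in DKO against control was 0.31 (SE 0.24, adjusted p = 0.68, 95% interval -0.26 to 0.88). The hydroxylase genes Egln1 and Egln3 had higher means in the DKO arrays but were not called, with differences of 0.84 (SE 0.32, adjusted p = 0.29) and 2.29 (SE 0.95, adjusted p = 0.34). Egln3, itself a HIF target, measured 8.44 and 10.07 in control, 8.61 and 10.12 in Ovol1 KO, and 12.88 and 10.21 in DKO. DKO 1 stood more than 2.5 log2 units above every other array, while DKO 2 lay within 0.2 of control 2 and Ovol1 KO 2.

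The enzymes that set the flow through glycolysis did not move together. Pfkfb3 measured 10.60 and 10.73 in control, 10.59 and 10.41 in Ovol1 KO, and 9.61 and 8.91 in DKO. The DKO arrays were the lowest pair, and the log2 fold change against control was -1.40 (SE 0.25, limma adjusted p = 0.035). The call was lost when DKO 2, either control array or either Ovol1 KO array was left out, with values from -1.47 to -1.06 and adjusted p-values from 0.059 to 0.098. It was also lost with the 4 compared arrays alone (adjusted p = 0.073) and with Xist as a covariate (-1.20, adjusted p = 0.74). Against Ovol1 KO the difference was -1.24 (SE 0.25, adjusted p = 0.067), and against Ovol1 KO 2 alone it was -1.14 (SE 0.33, adjusted p = 0.41).

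Pfkfb4, a second gene of the same enzyme family, was not called (-0.67, SE 0.54, adjusted p = 0.70), and its control arrays alone spanned 9.58 and 8.03. Pdk1 encodes a kinase that keeps pyruvate out of the mitochondrial citrate cycle. It measured 8.19 and 9.34 in control, 8.62 and 9.36 in Ovol1 KO, and 11.13 and 9.91 in DKO. The DKO arrays were above the other 4 but 1.23 apart, and the difference from control of 1.75 (SE 0.52, adjusted p = 0.17) was not called.

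**Figure D2:**
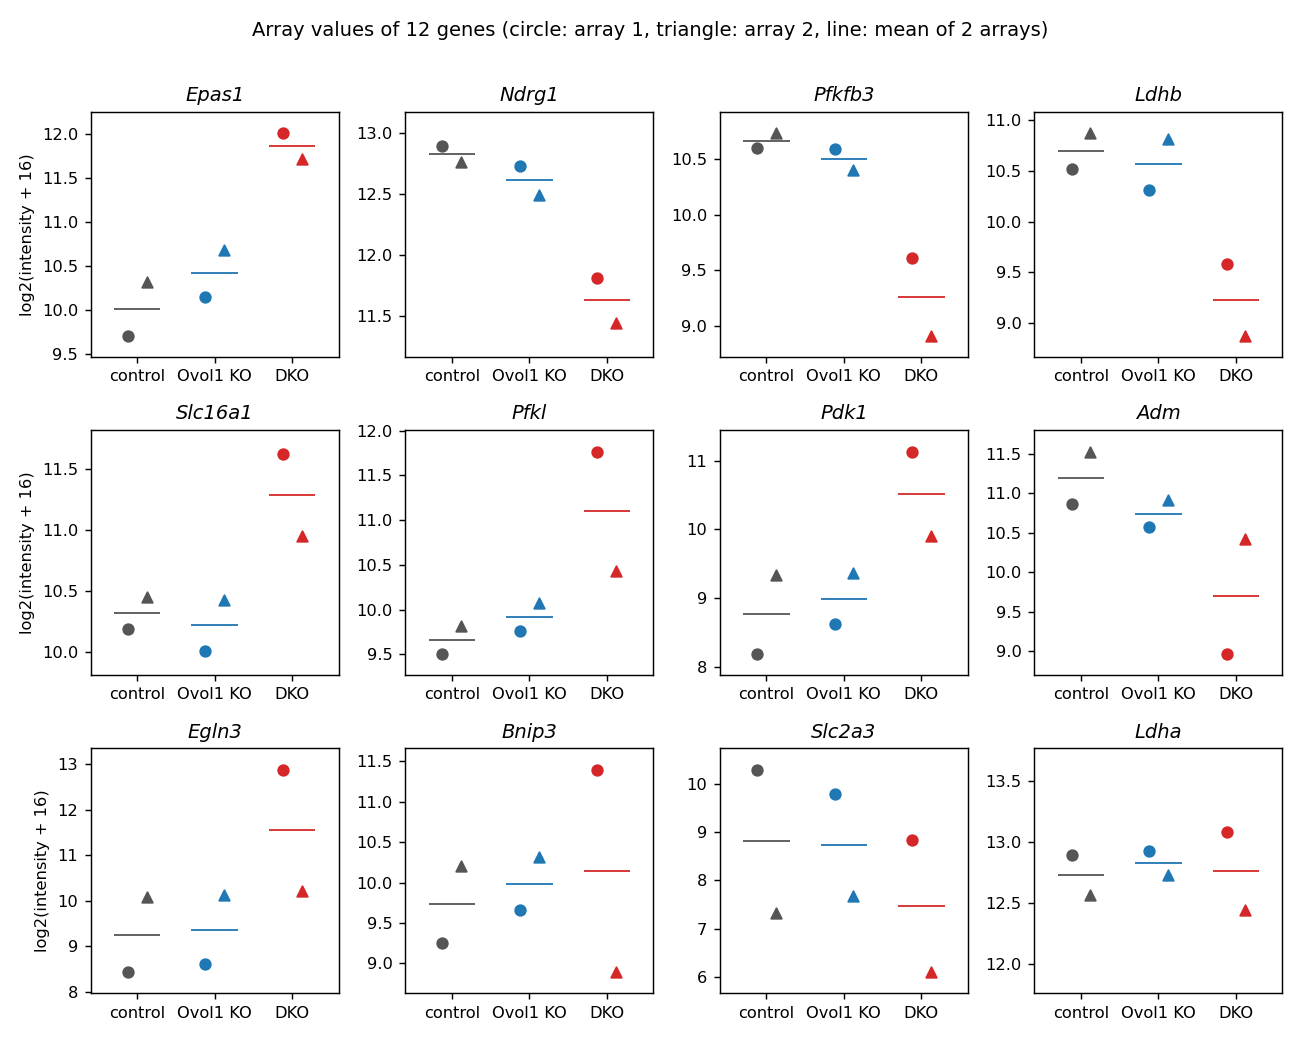
Values of 12 genes on the 6 arrays, as log2(intensity + 16) on the y axis of each panel, which does not start at 0, with circles for array 1, triangles for array 2 and a line at the mean of the 2 arrays. Both DKO arrays lie on 1 side of the other 4 for Epas1, Ndrg1, Pfkfb3, Ldhb, Slc16a1, Pfkl, Pdk1, Adm and Egln3. In the Egln3, Bnip3 and Slc2a3 panels the arrays of a group lie far apart. In the Ldha panel all 6 arrays lie between 12.45 and 13.08.

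None of the 14 measured glycolytic enzymes was called in DKO against control (limma, smallest adjusted p 0.053), while 2 had an unadjusted p below 0.05 (14.3%, against 14.5% of all genes). Ldhb, the lactate dehydrogenase subunit typical of tissues that burn lactate, came closest. It measured 10.52 and 10.87 in control, 10.31 and 10.82 in Ovol1 KO, and 9.59 and 8.88 in DKO. The DKO values were the lowest 2, with a difference from control of -1.46 (SE 0.30, adjusted p = 0.053), and a second Ldhb probe set gave -1.53. Ldhb was called when the values were used as deposited, without the quantile step. The sister subunit Ldha, a standard HIF target, measured 12.89 and 12.56 in control, 12.93 and 12.73 in Ovol1 KO, and 13.08 and 12.45 in DKO. Its groups overlapped, with a difference of 0.04 (SE 0.21, adjusted p = 0.97, 95% interval -0.47 to 0.54).

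Phosphofructokinase commits sugar to glycolysis, and its 3 subunit genes had positive differences without a call. Pfkl measured 9.51 and 9.81 in control, 9.76 and 10.07 in Ovol1 KO, and 11.77 and 10.43 in DKO. The DKO arrays were above the other 4, and the difference from control was 1.44 (SE 0.41, adjusted p = 0.15). Pfkm differed by 0.62 (adjusted p = 0.54) and Pfkp by 0.27 (adjusted p = 0.81). Of the hexokinases, which trap glucose in the cell, Hk2 differed by 0.60 (SE 0.26, adjusted p = 0.35), with both DKO arrays above the other 4. Hk1 differed by 0.15 (adjusted p = 0.62), and its dimmer probe set gave -0.37, of the opposite sign.

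The enzymes between aldolase and pyruvate kinase lay near 0. Aldoa differed by -0.11, Aldoc by 0.08, Tpi1 by 0.24, Pgk1 by 0.19, Pgam1 by 0.04, Eno2 by 0.15 and Pkm by -0.17, with SEs from 0.14 to 0.38 and adjusted p-values from 0.68 to 0.97. The groups overlapped for all 7. Their 95% intervals still reach from -0.82 to 0.98 for Aldoc, the widest of these. A difference approaching 2-fold is thus not excluded for Aldoc. The 3 Pgk1 probe sets each gave 0.19 in DKO against control, while the Pgam1 probe set used gave 0.04 and its other 2 gave 0.12. Genes with processed copies elsewhere in the genome can share probes. The 25 shared Gapdh probe sets lay between 13.08 and 13.86 on every array, close to the top of the scale, with DKO minus control differences from -0.09 to -0.02.

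Among the transport genes, Slc2a1, which encodes the main glucose transporter of keratinocytes, measured 13.10 and 12.88 in control, 12.87 and 13.23 in Ovol1 KO, and 13.72 and 13.23 in DKO. The DKO arrays were above both control arrays but DKO 2 matched Ovol1 KO 2, and the difference from control was 0.48 (SE 0.18, adjusted p = 0.29). Slc16a1, a lactate and pyruvate carrier, measured 10.19 and 10.45 in control, 10.01 and 10.43 in Ovol1 KO, and 11.62 and 10.95 in DKO. The DKO pair was above the other 4. The difference from control was 0.96 (SE 0.27, adjusted p = 0.14) and that from Ovol1 KO 1.07 (adjusted p = 0.12), neither of them called.

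The lactate exporter gene Slc16a3 differed by 0.22 (SE 0.56, adjusted p = 0.94), since DKO 1 at 11.72 was the highest array and DKO 2 at 9.88 the lowest. Slc2a3, which encodes a high-affinity glucose transporter, measured 10.29 and 7.33 in control, 9.78 and 7.68 in Ovol1 KO, and 8.82 and 6.12 in DKO. In every group array 1 was more than 2 log2 units above array 2, and the difference from control was -1.34 (SE 1.23, adjusted p = 0.75). The summed intensity of 8 marker genes of melanocytes (pigment cells) was split by array number too. It was 5122 and 1409 in control, 6729 and 1497 in Ovol1 KO, and 1875 and 1081 in DKO. Of the 8, 1 was called lower in DKO, Kit. The split was wide in Tyrp1 (10.52 and 5.81 in control, 8.46 and 5.72 in DKO). Sox10 split little in control (8.87 and 8.71) and the other way in DKO (8.46 and 8.73). The part of melanocytes in the Slc2a3 values was not tested.

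Of the 10 other hypoxia targets, 1 was called. Ndrg1 measured 12.89 and 12.76 in control, 12.73 and 12.49 in Ovol1 KO, and 11.81 and 11.44 in DKO. Both DKO arrays were below the other 4. Its log2 fold change in DKO against control was -1.20 (SE 0.15, limma adjusted p = 0.011), and the call was kept when any array was left out, with values from -1.38 to -1.01. It was lost with Xist as a covariate (-0.95, SE 0.26, adjusted p = 0.57). Against Ovol1 KO 2 alone the difference was -0.86 (SE 0.18, adjusted p = 0.22).

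Adm encodes adrenomedullin, a peptide that widens blood vessels. It measured 10.86 and 11.53 in control, 10.57 and 10.91 in Ovol1 KO, and 8.97 and 10.42 in DKO. Both DKO arrays were below the other 4, with a difference from control of -1.50 (SE 0.46, adjusted p = 0.18) that was not called. Vegfa, the main blood vessel growth factor gene and a standard HIF target, measured 9.27 and 10.39 in control, 9.36 and 9.55 in Ovol1 KO, and 9.88 and 9.93 in DKO. The DKO arrays lay between the control arrays, and the difference was 0.07 (SE 0.35, adjusted p = 0.97).

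Positive and uncalled differences were measured for the carbonic anhydrase genes Car12 (1.20, SE 0.50, adjusted p = 0.34) and Car9 (0.51, SE 0.19, adjusted p = 0.28), and for the collagen prolyl hydroxylase gene P4ha1 (0.76, SE 0.29, adjusted p = 0.28). For each of these both DKO arrays lay above both control arrays, and Car9 was dim, between 6.10 and 6.92. Its relative P4ha2 differed by -0.27 and Ankrd37, an ankyrin repeat gene, by 0.13, both with overlapping groups. Ero1l, whose oxidase forms disulfide bonds in the endoplasmic reticulum, differed by -0.66 (SE 0.22, adjusted p = 0.22), with both DKO arrays below the other 4. Bnip3, which promotes removal of mitochondria, differed by 0.42 (SE 0.76, adjusted p = 0.90), and a second probe set gave 0.65.

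The 2 DKO arrays lay further apart in these genes than the arrays of the other groups. The median absolute gap was 0.669 log2 units in DKO, 0.265 in control and 0.238 in Ovol1 KO, against 0.206, 0.166 and 0.235 over all genes. DKO 1 was above DKO 2 for 29 of the 35 genes (82.9%), against 47.4% of all genes, with a median gap of 0.64 against -0.02. In the control and Ovol1 KO groups array 1 was the higher for 14 of the 35 each (40%), with medians of -0.13 and -0.10. Among all genes array 1 was the higher for 47.6% in control and 31.8% in Ovol1 KO, with medians of -0.01 and -0.14. The gap passed 1 log2 unit in 9 of the 35 genes in the DKO group (25.7%, 8 of them higher in DKO 1), against 2.40% of all genes. In the control group 6 of 35 (17.1%, against 2.7% of all genes) had such a gap, and in the Ovol1 KO group 4 of 35 (11.4%, against 2.6%). DKO 1 was the highest of the 6 arrays for 23 of the 35 genes (65.7%, all genes 21.6%) and DKO 2 the lowest for 15 (42.9%, all genes 17.7%).

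**Figure D3:**
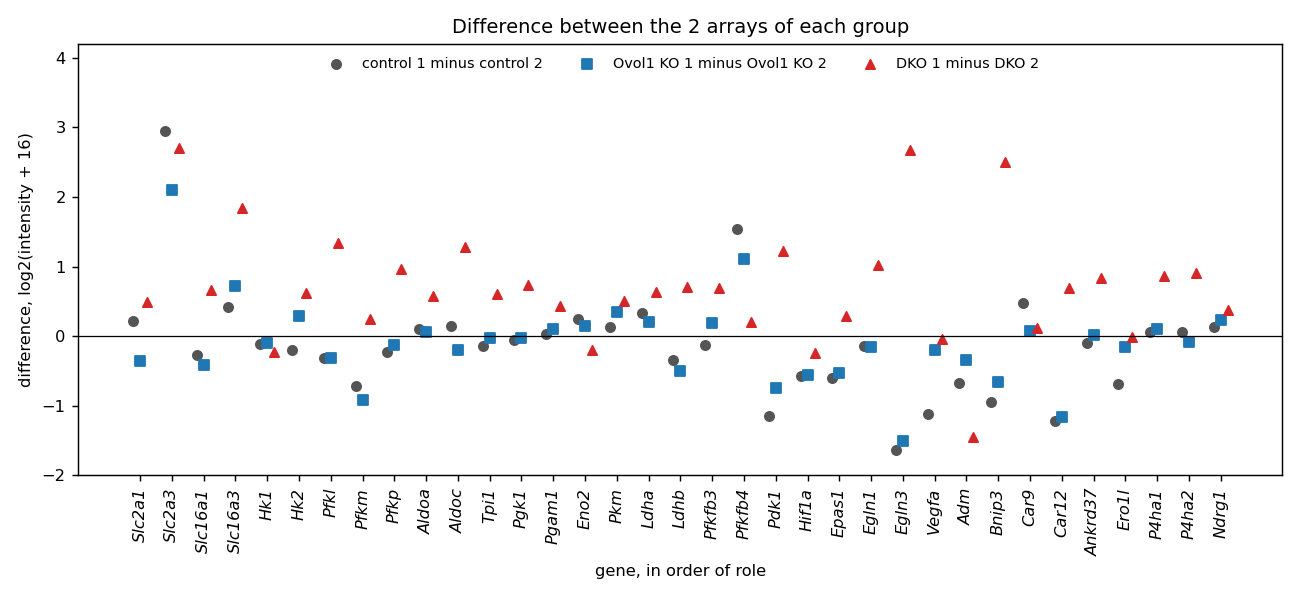
Value on array 1 minus value on array 2, in log2 units, for the 35 genes (x axis, by role) in the control (circles), Ovol1 KO (squares) and DKO (triangles) groups. Most triangles lie above 0, with Slc2a3, Egln3 and Bnip3 between 2.50 and 2.71, and Adm is the single triangle below -1.

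DKO 1 was higher for 12 of the 14 glycolytic enzymes, with a median gap of 0.61, and for 4 of 4 transporters, 3 of 3 flow-setting enzymes, 3 of 4 oxygen sensing genes and 7 of 10 other targets. Against the control arrays, DKO 1 stood above both for 24 of the 35 genes and below both for 5, and DKO 2 stood above both for 15 and below both for 17. Among all 19938 genes, DKO 1 stood above both for 7120 and below both for 7874, and DKO 2 above for 8744 and below for 6616. For the glycolytic enzymes these counts were 11 above and 1 below in DKO 1, and 5 above and 8 below in DKO 2. Of the oxygen sensing genes, 4 of 4 were above both control arrays in DKO 2 and 3 of 4 in DKO 1, and of the flow-setting enzymes 1 of 3 was above and 1 below in each DKO array. Without DKO 1 the difference from control was positive for 16 of the 35 genes, with a median of -0.18, and without DKO 2 for 29 of them, with a median of 0.55.

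Bnip3 shows the split most plainly, at 11.40 in DKO 1, the highest of the 6 arrays, and 8.90 in DKO 2, the lowest. Its control arrays measured 9.25 and 10.21 and its Ovol1 KO arrays 9.66 and 10.32, so array 2 was the higher in those groups. The same turn, with each gap over 0.5, was seen in Pdk1, Egln3 and Car12, which makes 4 of 35 genes (11.4%) against 0.913% of all genes. These 4 were singled out after their values were seen. The DKO 1 array also had the highest summed intensity of 12 keratinocyte markers, 122728 against 96094 in DKO 2 and 78673 to 82551 on the other 4 arrays. Krt1 (14.70 in DKO 1, the top of the scale, and 12.40 in DKO 2) and Krt10 (13.93 and 13.01), keratins of differentiating cells, had the widest gaps of the 12 between the DKO arrays. Krt1 and Krt10 were called higher in DKO and Itgb4 lower. Culture times are given as ranges and not per array, so a part of timing, of oxygen in the dish or of cell state in this split was not tested.

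Loss of Ovol1 alone gave no called gene among the 35, and 0 were called among all 19938 genes (0% of them). At an unadjusted limma p below 0.05 there were also 0 of the 35, against 0.813% of all genes. The differences from control ran from -0.46 for Adm to 0.40 for Epas1, with a median of -0.04 over the 35 and -0.06 over all genes. They were positive for 16 genes and negative for 19, against 6836 positive and 13102 negative among all genes. For the glycolytic enzymes they ran from -0.17 to 0.25. The precision was that of the DKO comparison, with SEs from 0.105 for Hk1 to 1.23 for Slc2a3. For 23 of the 35 the 95% interval stopped short of a 2-fold change in either direction, and for the other 12, Epas1, Egln3, Pdk1 and Adm among them, it did not.

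Between DKO and Ovol1 KO, Ndrg1 alone was called, with a log2 fold change of -0.98 (SE 0.15, limma adjusted p = 0.027). That call was lost when DKO 2 or either Ovol1 KO array was left out. The count of 0 higher and 1 lower stands against 0.657% higher and 1.49% lower among all genes. At an unadjusted p below 0.05 there were 9 of the 35 (6 higher, 3 lower), against 13.3% of all genes. This comparison shares the DKO arrays with the one against control, so its values are given side by side and not as support. Ldhb differed by -1.33 here and -1.46 there, Pdk1 by 1.53 and 1.75, Pfkl by 1.19 and 1.44, Egln3 by 2.18 and 2.29, and Adm by -1.05 and -1.50.

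Of other genes of these pathways, 97 measured in 6 lists, 5 (5.15%) were called in DKO against control, 1 higher and 4 lower, against 3.20% of all genes. Among 27 other genes of glycolysis and gluconeogenesis, 1 was called: Eno3, the muscle-type enolase, measured 9.29 and 8.95 in control, 8.62 and 8.59 in Ovol1 KO, and 8.18 and 7.96 in DKO (-1.05, SE 0.20, adjusted p = 0.043). The Eno3 call was lost when any single array was left out (-1.22 to -0.88, adjusted p 0.054 to 0.23), with the 4 compared arrays alone and with Xist as a covariate. Of 12 genes of pyruvate entry into mitochondria, 7 of the pentose phosphate pathway, 10 of glycogen metabolism and 14 other components of the HIF pathway, 0 were called by limma, with 1, 3, 0 and 1 of them at an unadjusted p below 0.05 (11.6% of the 43, against 14.5% of all genes). The 3 genes of the pentose phosphate pathway were 42.9% of its 7, all lower in DKO: Pgd (-0.50), Rpia (-1.01) and Taldo1 (-0.71). Both DKO arrays lay below both control arrays in each. The medians of the 6 lists lay between -0.09 and 0.04, against 0.02 over all genes.

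Of 27 further HIF target genes, 4 (14.8%) were called, 1 higher and 3 lower, against 3.20% of all genes. With no adjustment, 12 had a limma p below 0.05 (44.4%, 4 higher and 8 lower), against 14.5% of all genes. This list too was chosen with earlier results of these data known. Fam162a, a mitochondrial hypoxia-response gene, measured 9.73 and 9.91 in control, 10.08 and 10.71 in Ovol1 KO, and 12.34 and 11.48 in DKO (2.09, SE 0.32, adjusted p = 0.022). Cited2, whose product competes with HIF-alpha for a coactivator, measured 12.55 and 12.16 in control, 12.46 and 12.04 in Ovol1 KO, and 10.58 and 10.80 in DKO (-1.67, SE 0.20, adjusted p = 0.0084). Both DKO arrays were outside the range of the other 4 for both genes. Hmox1, the heme oxygenase gene of oxidative stress, fell by 2.13 (SE 0.38, adjusted p = 0.036), and Plod2, a collagen lysyl hydroxylase gene, fell by 1.65 (SE 0.29, adjusted p = 0.034). Without DKO 1 the calls of Fam162a (1.66, adjusted p = 0.095), Cited2 (-1.56, adjusted p = 0.061) and Hmox1 (-1.64, adjusted p = 0.16) were lost, and that of Hmox1 also without control 1 (-1.92, adjusted p = 0.057). The Plod2 call was lost without any array but DKO 1 (-1.70 to -1.21, adjusted p 0.051 to 0.075) and with the 4 compared arrays alone. With Xist as a covariate all 4 calls were lost, with adjusted p from 0.50 to 0.81. In DKO against Ovol1 KO, Cited2 alone of the 97 was called (-1.56, adjusted p = 0.013), a call lost without Ovol1 KO 1 (-1.36, adjusted p = 0.11), without DKO 1 (-1.45, adjusted p = 0.086) or without DKO 2 (-1.67, adjusted p = 0.056).

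**Figure D4:**
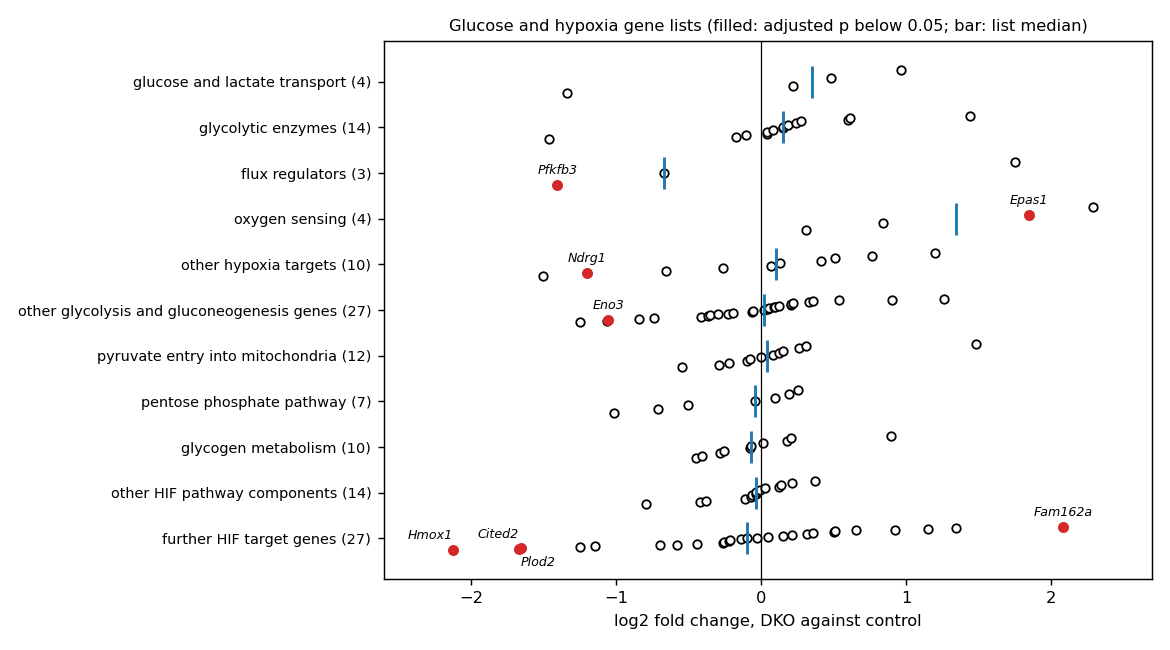
Log2 fold change in DKO against control (x axis) of each measured gene in the 5 roles of the main genes and in 6 further lists (y axis, number of genes in brackets), with red points for an adjusted p below 0.05 and a bar at each list's median. Called genes lie on both sides of 0, and in the list of further HIF target genes 3 of the 4 lie below it.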

How the data were processed

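The authors deposited linear intensities, already summarised to 1 value for each probe set on each array. Per the submitters' processing notes, the tools were Affymetrix Expression Console 1.1.1 and PLIER 2.0, with roles and settings not given in the sources used here. Of 35556 probe sets, 21789 carried 1 gene symbol, 1621 several and 12146 none here. An offset of 16 was added, log2 taken, and the 6 arrays quantile-normalized, since their quartiles differed by up to 0.218. A limma model (version 3.58.1, R 4.3.3) of 3 group means was fitted to the 6 arrays and 19938 genes, with a variance trend and Benjamini-Hochberg adjustment. It was also run on simulated data with independent noise, which lack the Xist split and any link between arrays of the same number. The model has 3 residual and 3.89 prior degrees of freedom, so the spread is shared between groups.

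The members and lists were chosen with earlier results of these data known. Array values are given for each called gene, for those next by smallest adjusted p up to 8 in all, and for Hif1a, Epas1, Slc2a1, Vegfa and Ldha; Egln3, Bnip3 and Slc2a3 were added after their values were seen. The called genes of the other lists are named. Alternatives were offsets of 1 and 64, values as deposited, no dimmest 30% of genes, no variance trend, the mean over probe sets, the 4 arrays compared alone, a replicate block, Xist as a covariate and each array left out. Probe sets with several symbols or none were left out of the tests.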

Additional observations from a re-analysis of the deposited data

How the results depend on the processing

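No called difference changed sign in any of the 15 alternatives per comparison, and among the 35 genes 17 kept their sign in all of them in DKO against control, 20 in DKO against Ovol1 KO and 10 in Ovol1 KO against control. The last comparison had 0 calls among these genes under each alternative. In DKO against control, where 1 gene was called higher and 2 lower, with 1 and 4 of the 97 genes of the other lists, the 4 arrays alone gave 1 lower and 2 lower in the other lists. Xist as a covariate gave 0 in each direction in both sets. Among all genes, 2.33% were called with the 4 arrays alone and 0.0401% with Xist as a covariate, against 3.2% in the main fit. The Xist value hardly varies within the control or the DKO group, so the fit with this covariate leans on the 2 Ovol1 KO arrays. With arrays left out in turn, 0 to 2 genes were called higher and 1 to 2 lower, and 0 to 2 higher and 1 to 4 lower in the other lists.

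In DKO against Ovol1 KO, where 0 genes were higher and 1 lower, and 0 and 1 in the other lists, 1 gene (Epas1) was also called higher with an offset of 64, with values as deposited and with the 4 arrays alone. The 4 arrays alone gave 3 lower, and 2 higher and 5 lower in the other lists. Without a variance trend 0 were lower, and with Xist as a covariate 0 in both sets. Among all genes, 3.7% were called with the 4 arrays alone, 1.8% without the trend and 0.371% with Xist, against 2.15% in the main fit. Leaving arrays out gave 0 to 1 higher and 0 to 3 lower, and 0 to 2 higher and 0 to 5 lower in the other lists.

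The labels give replicate numbers but do not say what they mark. Deviations of same-numbered arrays correlated at 0.151 between DKO and control, 0.687 between Ovol1 KO and control and 0.087 between DKO and Ovol1 KO, with 2 pairs each. With a replicate block, DKO against control had 4 genes lower (Slc2a3, limma adjusted p = 0.034, and Adm added) and 10 lower in the other lists. DKO against Ovol1 KO had 1 higher and 3 lower with the block, and 4 lower in the other lists. The block also raised the share called among all genes, from 3.2% to 5.36% and from 2.15% to 4.04%, in that order. The 2 arrays per group and the lack of a detection call limit what dim genes such as Car9, Eno2 and Ankrd37 can show.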

Other observations

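Txnip, whose product restrains glucose uptake and which responds to glucose itself, measured 10.32 and 12.50 in the control arrays, 10.36 and 12.83 in the Ovol1 KO arrays, and 12.58 and 12.77 in the DKO arrays. Array 1 of the control and Ovol1 KO groups stood about 2 log2 units below the other 4 arrays, which lay between 12.50 and 12.83, and its difference in DKO against control was 1.26 (SE 0.89, limma adjusted p = 0.63). Its relative Arrdc4 measured 10.85 and 10.62 in control, 10.74 and 11.19 in Ovol1 KO, and 11.77 and 11.51 in DKO, a difference of 0.91 (SE 0.20, adjusted p = 0.069). Pcx, the pyruvate carboxylase gene, measured 10.18 and 9.98 in DKO and no more than 9.20 on the other 4 arrays, a difference of 1.48 (SE 0.47, adjusted p = 0.20). The mitochondrial hypoxia gene Higd1a and the glycogen phosphorylase gene Pygl were high in DKO 1 alone. Higd1a measured 10.80 in DKO 1 and 8.61 in DKO 2, with 8.46 to 8.77 on the other 4 arrays, and Pygl measured 9.79 in DKO 1 and 7.40 in DKO 2, with 7.26 to 8.30 on the others. These genes were chosen after their values were seen, and none was called.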
